A study of Mus musculus with 2 samples.

Results

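The mRNA-decay regulators of the Zfp36 family (Zfp36, Zfp36l1, Zfp36l2) and of the BTG/TOB family (Btg1, Btg2, Tob1, Tob2) were examined in vascular cells of the mouse lung. All probe sets whose only gene symbol in the platform annotation was one of these 7 names were taken, which gave 18 probe sets for 7 of the 18193 genes on the array. The genes had been proposed with earlier results of these data known, so their values are a description of these arrays and no test is attached to them. The label under which they were grouped, early RNA-decay genes, cannot be judged from these values, as the genes were proposed with results known. Zfp36 and Zfp36l1 were higher on the old array by 2-fold or more, as most immediate early genes measured here were. Of the other members, 3 differed by less than 2-fold and 2 were higher on the young array.

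The study compared C57BL/6J mice labelled old with C57BL/6J mice labelled young. Mice of both groups had undergone pneumonectomy, here resection of the left lobe, and flow sorting of the right lobes gave the vascular cells, so no group here is without surgery. There was 1 expression array of total RNA per group. The sources used here give no ages, interval after surgery, sorting markers, genetic modification or count of mice pooled for an array.

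Zfp36 proteins bind AU-rich elements in mRNA through paired CCCH zinc fingers and recruit the CCR4-NOT complex, which shortens the poly(A) tail and so starts decay of the transcript. Zfp36 itself, also called tristetraprolin, is an immediate early gene whose protein limits inflammatory transcripts such as that of tumour necrosis factor. BTG and TOB proteins bind the deadenylase subunits encoded by Cnot7 and Cnot8 through a shared amino-terminal domain, and were first known as inhibitors of cell proliferation. Btg2 is induced by p53 and by growth factors, and Btg1 is highly expressed in quiescent cells.

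Promoters are shown for 4 members, chosen with their ratios known. Zfp36 and Btg2 are both known as early-response genes, and Btg1 and Tob1 had the lower signal on the old array. No link between a promoter sequence and a ratio was tested. Each is the stretch of 250 bases before the RefSeq transcription start in mouse build GRCm38.p6, written from the distal end towards the start, with capitals for matches to the motifs described next.
Zfp36, chr7:28379229-28379478, minus strand: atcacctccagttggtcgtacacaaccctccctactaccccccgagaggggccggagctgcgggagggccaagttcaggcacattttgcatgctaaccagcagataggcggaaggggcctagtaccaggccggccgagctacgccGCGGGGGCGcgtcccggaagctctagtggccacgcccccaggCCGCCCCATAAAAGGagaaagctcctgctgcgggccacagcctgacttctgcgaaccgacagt
Btg2, chr1:134079156-134079405, minus strand: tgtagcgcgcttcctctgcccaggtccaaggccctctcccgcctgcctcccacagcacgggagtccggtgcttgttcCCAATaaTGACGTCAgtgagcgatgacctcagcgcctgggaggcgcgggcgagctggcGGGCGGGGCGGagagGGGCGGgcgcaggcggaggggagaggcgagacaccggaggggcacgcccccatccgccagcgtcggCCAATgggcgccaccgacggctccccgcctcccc
Btg1, chr10:96616751-96617000, plus strand: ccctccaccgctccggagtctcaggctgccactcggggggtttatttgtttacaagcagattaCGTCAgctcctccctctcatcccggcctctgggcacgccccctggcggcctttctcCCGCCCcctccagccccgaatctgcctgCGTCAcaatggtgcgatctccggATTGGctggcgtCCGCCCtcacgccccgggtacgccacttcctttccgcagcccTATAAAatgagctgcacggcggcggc
Tob1, chr11:94211204-94211453, plus strand: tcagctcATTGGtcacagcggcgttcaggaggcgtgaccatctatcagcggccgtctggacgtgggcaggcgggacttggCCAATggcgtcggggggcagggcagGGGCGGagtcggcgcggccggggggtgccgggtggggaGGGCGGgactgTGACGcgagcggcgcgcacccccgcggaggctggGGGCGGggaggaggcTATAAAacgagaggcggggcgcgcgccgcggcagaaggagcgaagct

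Of the 7 genes, 6 had a RefSeq promoter window of 250 bases before to 50 after the start; Zfp36l2 was not matched. The motifs were searched on both strands. A CArG box, the binding sequence of serum response factor, was matched in Zfp36, beginning 58 bases before the start, and in no other of the 6 windows. CArG boxes were matched in 1.63% of 32851 mouse promoter windows of the same length. Zfp36 also held the Egr-type motif GCGGGGGCG 105 bases before the start (2.91% of windows), and the related GCGTGGGCG was matched in 0 of the 6 (0.612%). Btg2 held the full cyclic AMP response element TGACGTCA 166 bases before the start (1.79%). The shorter TGACG, which lies within the full element in Btg2, was matched in Btg1, Btg2 and Tob1 (20.8%). TATAAA was matched in Zfp36l1, Btg1 and Tob1 (13.6%), CCAAT in 4 of the 6 (37.4%) and GGGCGG in 5 (35.7%). In Zfp36 the GGGCGG match on the opposite strand shares its last base with the CArG box, and in Zfp36l1 the TATAAA and CCAAT matches share a base. CACGTG (7.15%) and the p53 decamer (8.36%) were matched in 0 of the 6. A match is a description of the letters in the window and not evidence of binding.

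**Figure D1:**
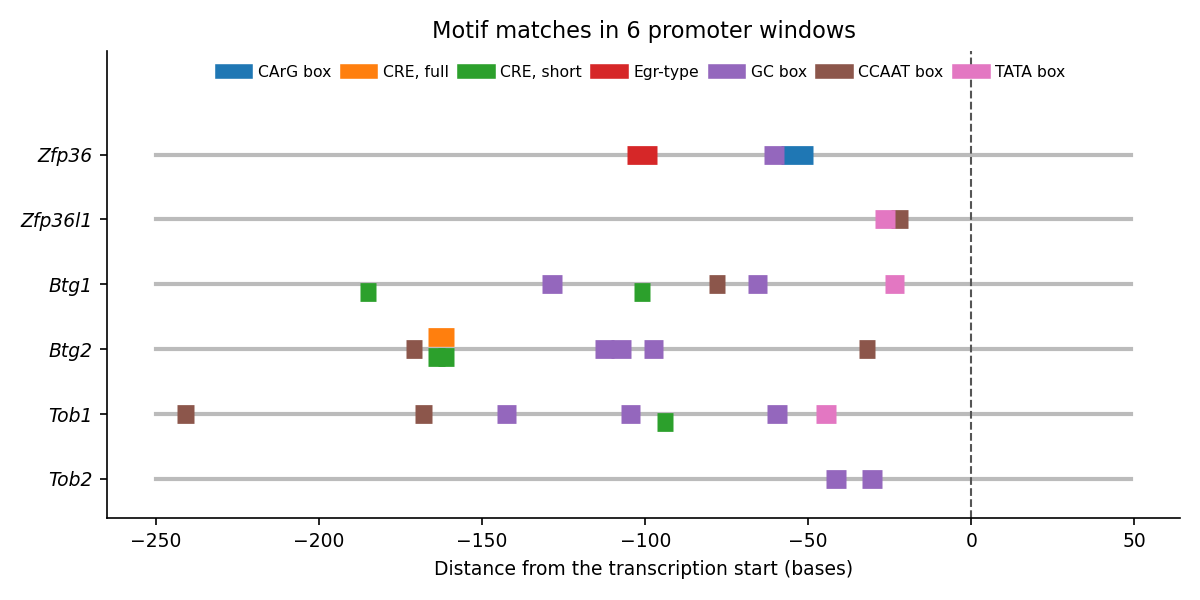
Motif matches (coloured blocks) along 6 promoter windows, by distance in bases from the transcription start (dashed line); CRE stands for TGACGTCA (full) or TGACG (short), GC box for GGGCGG and Egr-type for GCGGGGGCG. The CArG box appears in Zfp36 only and the full CRE in Btg2 only among the 6 windows.

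Signals are MAS5 intensities on a linear scale, rescaled here so that the median log2 ratio of expressed probe sets was 0. All log2 ratios are old minus young. The floor, the higher of both array medians, was 73.7 signal units, and values under it were treated as having no order. A gene was represented by its brightest probe set and was counted as different at 2-fold or more. With 1 array per group there is no replicate check, and the spread between probe sets of a gene (SD of 0.42 in log2 ratio over 4514 genes) describes the probes and not the mice. Signals are compared between the arrays within a probe set. The exceptions are the likeness between genes and the summed marker signals given near the end, both of which depend on the brightness of each probe set.

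Of 12105 genes above the floor on at least 1 array, 16% passed 2-fold toward the old array and 11.3% toward the young, 27.3% in all. All 7 members were above the floor on both arrays by their brightest probe set, and 2 passed 2-fold toward the old array, 2 toward the young and 3 did not pass it. Their median log2 ratio was 0.24, against 0.03 over the 12105 genes. Since the genes were proposed from this comparison, nothing is read from these counts.

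**Figure D2:**
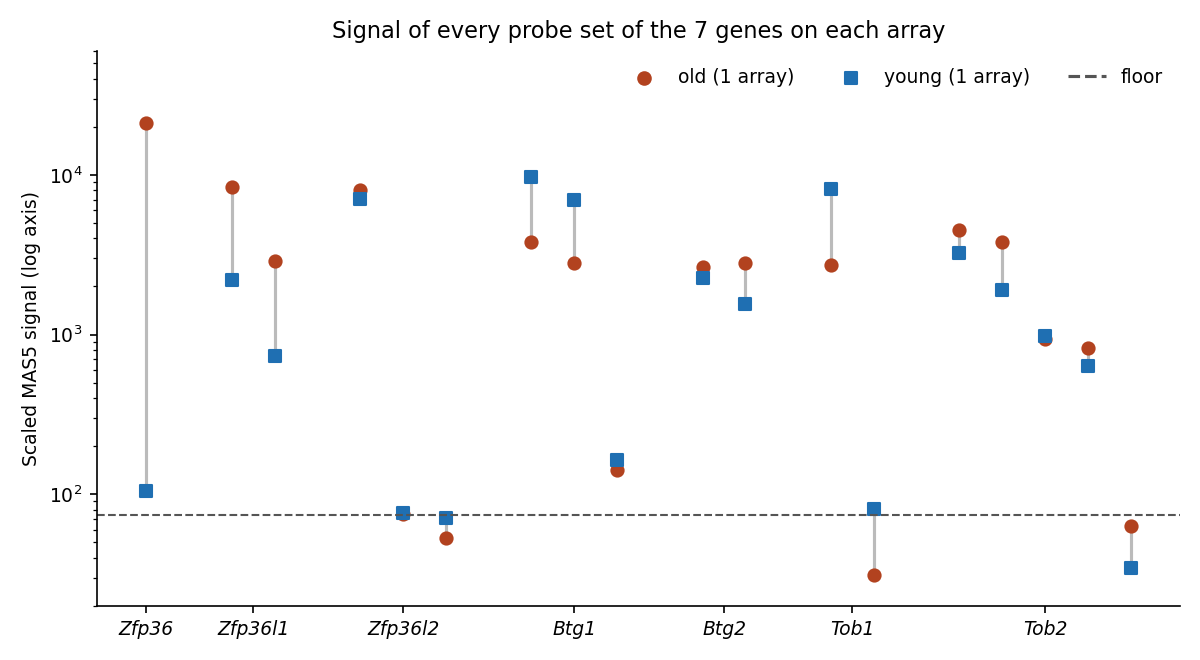
Signal of each of the 18 probe sets of the 7 genes on the old (circles) and young (squares) array, on a log axis, with the floor of 73.7 as a dashed line; each grey line joins the values of 1 probe set. Zfp36 spans 105 to 21257, and the bright probe sets of Btg1 and Tob1 have the young value on top.

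Zfp36 gave 21257 signal units on the old array and 105 on the young. The old array was therefore 203-fold higher (log2 ratio 7.66), and this was the largest ratio toward the old array among the 10004 genes above the floor on both arrays in the scaling used here. That ranking leaves out genes under the floor on the young array, of which Mrc1 (at least 374-fold) and Cxcl10 (at least 243-fold) had larger lower bounds. The young value was only 1.42 times the floor, so the size of the fold rests on a signal close to background. With the floor raised to the 75 percentile of the arrays, the young value fell below it and the old array was at least 43.5-fold higher. Zfp36 was measured by a single probe set, which leaves no second reading of its ratio.

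Zfp36l1, a paralogue of Zfp36 with roles in development and in the vasculature, gave 8425 signal units on the old array and 2184 on the young by its brighter probe set. The other probe set gave 2905 and 736. The old value was the higher one in both probe sets, by 3.86-fold and 3.95-fold (log2 ratios 1.95 and 1.98). Unlike that of Zfp36, the young signal of Zfp36l1 was well above background, at 29.6 times the floor.

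Zfp36l2, the remaining family member measured, is best known from lymphocyte and oocyte development. Its bright probe set had 8069 on the old array and 7092 on the young, a log2 ratio of 0.19. A further probe set lay just above the floor on both arrays (74.6 and 76.0), and the last was below it on both. The sign of its ratio was not stable: it was -0.11 with quantile normalization and -0.05 with loess. The 3 paralogues thus had log2 ratios of 7.66, 1.95 and 0.19 on the same pair of arrays.

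Among the BTG genes, Btg1 had the higher signal on the young array. Its bright probe set had 3794 on the old array and 9758 on the young (2.57-fold, log2 ratio -1.36), and the next 2826 and 6923 (2.45-fold, -1.29). The dim probe set left had 141 and 164 (-0.22). The young value was the higher one in all 3 probe sets, and the dim one differed by 1.16-fold.

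Btg2, the p53-inducible and growth-factor-inducible member, had 2665 on the old array and 2253 on the young by its brightest probe set, and 2817 and 1554 by the other. The log2 ratios were 0.24 and 0.86, both toward the old array and both under 2-fold. For comparison, the immediate early genes Egr1 and Fos had log2 ratios of 6.92 and 6.79.

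Tob1, which binds the deadenylase and the poly(A)-binding protein and is known as a brake on proliferation, had 2720 on the old array and 8200 on the young (3.02-fold higher on the young, log2 ratio -1.59). Its second probe set was below the floor on the old array (30.9) and just above it on the young (81.2), so it gives no usable fold, with the young value on top. Averaged over probe sets, which gives the dim ones equal weight, Tob1 and Btg1 had log2 ratios of -0.87 and -0.96, and then 0 members passed 2-fold toward the young array.

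Tob2, the close relative of Tob1, was the member with most probe sets. Its shared-sequence probe sets, of the kinds that can match several transcripts, had 4488 against 3236 and 3810 against 1906 (old against young, log2 ratios 0.47 and 0.999). The probe sets without shared sequence had 934 against 985 and 820 against 634 (-0.077 and 0.37), and the fifth was below the floor on both arrays. All 4 readable probe sets were within 2-fold, and the sign of the gene's ratio turned when shared-sequence probe sets were left out (-0.077).

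**Figure D3:**
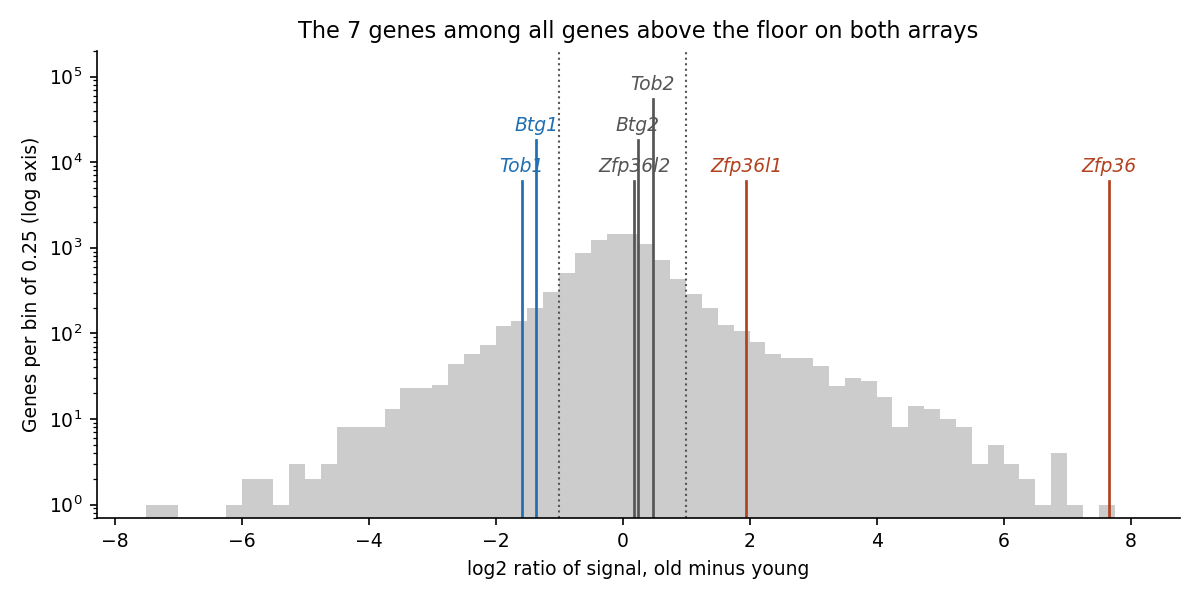
Histogram of the log2 ratio (old minus young) of the 10004 genes above the floor on both arrays, with the count per bin on a log axis; vertical lines mark the 7 members and dotted lines mark 2-fold. Zfp36 at 7.66 lies at the edge of the distribution, Zfp36l1 on its old side, and Btg1 and Tob1 on its young side.

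Zfp36 and Zfp36l1 were on the old side and Btg1 and Tob1 on the young side with each of the 3 other scalings, namely the values as deposited, quantile normalization and loess, at 2-fold or more in each. Their log2 ratios over all 9 settings ran from 5.44 to 7.73 for Zfp36, 1.76 to 1.96 for Zfp36l1, -1.68 to -0.96 for Btg1 and -1.86 to -0.87 for Tob1. Btg2 stayed between 0.11 and 0.55 and passed 2-fold in 0 of the 9 settings.

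**Figure D4:**
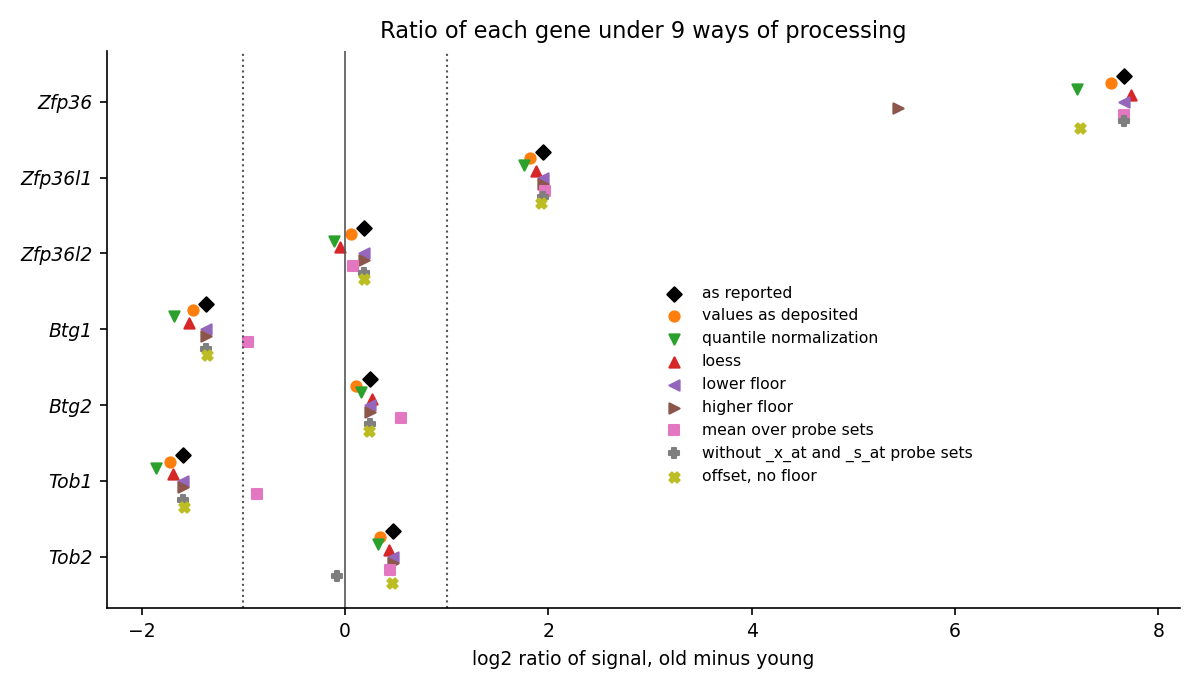
The log2 ratio (old minus young) of each gene under 9 ways of processing (symbols), with dotted lines at 2-fold. The separation of Zfp36 and Zfp36l1 from Btg1 and Tob1 is seen in every setting, and Zfp36l2 and Tob2 have settings on both sides of 0.

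The machinery that these proteins recruit is read here against the 72.7% of all measured genes that were within 2-fold. In the medians given here, a gene under the floor on 1 array enters at its lower bound. All 11 measured genes of the CCR4-NOT complex were within 2-fold, with a median log2 ratio of 0.00. The deadenylase subunit genes Cnot7 and Cnot8, whose products bind BTG and TOB proteins, had log2 ratios of -0.50 (1826 on the old array and 2577 on the young) and 0.20 (1585 and 1382). Cnot10 had the largest ratio of the complex (0.77), followed by Cnot11 (-0.62) and Tnks1bp1 (0.56). The scaffold gene Cnot1 had no probe set with that single symbol and is not reported.

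Of 15 genes of decapping and exonuclease decay, 14 were within 2-fold (median log2 ratio 0.01). The exception was the decapping cofactor gene Dcp1b, 2.84-fold higher on the old array with signals of 463 and 163, both of which lie under the higher floor. The decapping enzyme gene Dcp2 had -0.85, the scaffold gene Edc4 0.77 and the translation repressor gene Eif4enif1 0.93. Of 9 other deadenylase and poly(A)-binding genes, 3 passed 2-fold toward the old array and 0 toward the young (median 0.62). The shares over all measured genes were 16% and 11.3%. These were Pan3 (2.16-fold), a subunit of the PAN2-PAN3 deadenylase, Noct (2.16-fold) and Paip1 (2.12-fold), all close to the limit. Noct is listed by its kinship with deadenylases, and activity of its product on poly(A) is not implied. On the values as deposited 0 of the 3 passed 2-fold. With the higher floor 1 gene of this list did.

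Of other RNA-binding regulators of mRNA stability, 8 of 11 measured were within 2-fold (median 0.27), a share near that of all genes. Elavl1, whose product HuR binds AU-rich mRNAs and stabilises them, had 2141 on the old array and 2124 on the young (log2 ratio 0.01). The endonuclease gene Zc3h12a, known as Regnase-1, had 310 on the old array and lay under the floor on the young, a difference of at least 4.21-fold. Tia1 (2.04-fold) and Zc3h12c (2.03-fold) were just past the limit on the young side, and Rc3h2, a Roquin gene, had -0.91. With loess, the mean over probe sets or the offset, 0 genes of this list passed 2-fold toward the young array. A further list holds p38 and MK2 kinases, part of which lead to phosphorylation of Zfp36, and the 14-3-3 proteins that then bind it. Of its 12 measured genes, 11 were within 2-fold (median 0.08). Mapkapk2, the kinase known to inactivate Zfp36 protein, had -0.23. The p38 gamma gene Mapk12 was 4.65-fold higher on the old array (5816 and 1252), and no part of it in the phosphorylation of Zfp36 is implied.

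Transcripts known as targets of Zfp36 proteins were mostly on the old side, as Zfp36 was. Of 26 measured, 17 passed 2-fold toward the old array and 2 toward the young, with a median log2 ratio of 2.54, against 16% and 11.3% of all measured genes. With the higher floor these counts were 11 and 0. Of the 26, 8 were under the floor on the young array and 0 on the old, so those 8 count as measured only through the old array. This and the other lists were chosen with earlier results of these data known, so nothing is read from the counts. The chemokine gene Cxcl10 had 17896 on the old array against a young signal under the floor (at least 243-fold), and Cxcl1 had 6632 and 75.7 (87.6-fold, close to a lower bound since the young value was 1.03 times the floor). The excess on the old array was at least 29.7-fold for Cxcl2 and at least 6.55-fold for Tnf, the best studied target, which had 483 there. The 2 on the young side were the growth factor gene Vegfa (4.30-fold) and the cell cycle gene E2f1 (4.08-fold), which were singled out after their values were seen. Csf2 and Il23a were below the floor on both arrays.

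Early-response genes were mostly on the old side, as Zfp36 was. Of 16 measured immediate early genes, 4 were under the floor on the young array and 0 on the old. Of the 16, 13 passed 2-fold toward the old array (median 2.65), against 16% of all measured genes. Egr1 (121-fold), Fos (110-fold), Nr4a1 (at least 68.8-fold) and Junb (42.1-fold) led them. Maff, named after its value was seen, was the 1 gene on the young side (6.79-fold), against 11.3% of all measured genes. Of 11 MAPK feedback genes, 8 were higher on the old array (median 2.42) and 2 on the young, against 16% and 11.3% of all, with Spry4 at least 18.8-fold, Dusp5 11.3-fold, Spry2 8.22-fold and Spred2 7.31-fold, while Dusp1, a phosphatase of p38 and an AU-rich target, was 5.33-fold higher. Dusp2 (4.41-fold) and Dusp8 (3.14-fold), named after their values were seen, were higher on the young array, as Btg1 and Tob1 were, and 1 gene of this list was with the higher floor. The target list shares Fos and Ier3 with the immediate early list and Dusp1 with the feedback list.

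The p53 targets, of which Btg2 is one, had 9 of 13 measured within 2-fold, near the 72.7% of all genes (median -0.16). Of the 13, 1 was higher on the old array and 3 on the young, against 16% and 11.3% of all. Cdkn1a, the cyclin-dependent kinase inhibitor and a standard p53 readout, had 6926 on the old array and 6643 on the young (log2 ratio 0.06). Phlda3 (3.09-fold), Zmat3 (2.58-fold) and Bbc3 (2.13-fold) were higher on the young array and Perp (2.42-fold) on the old. Of the relatives outside the 7 genes, Btg4 was below the floor on both arrays, and no value is given for Btg3 and Zfp36l3, for which no probe set had that single symbol.

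**Figure D5:**
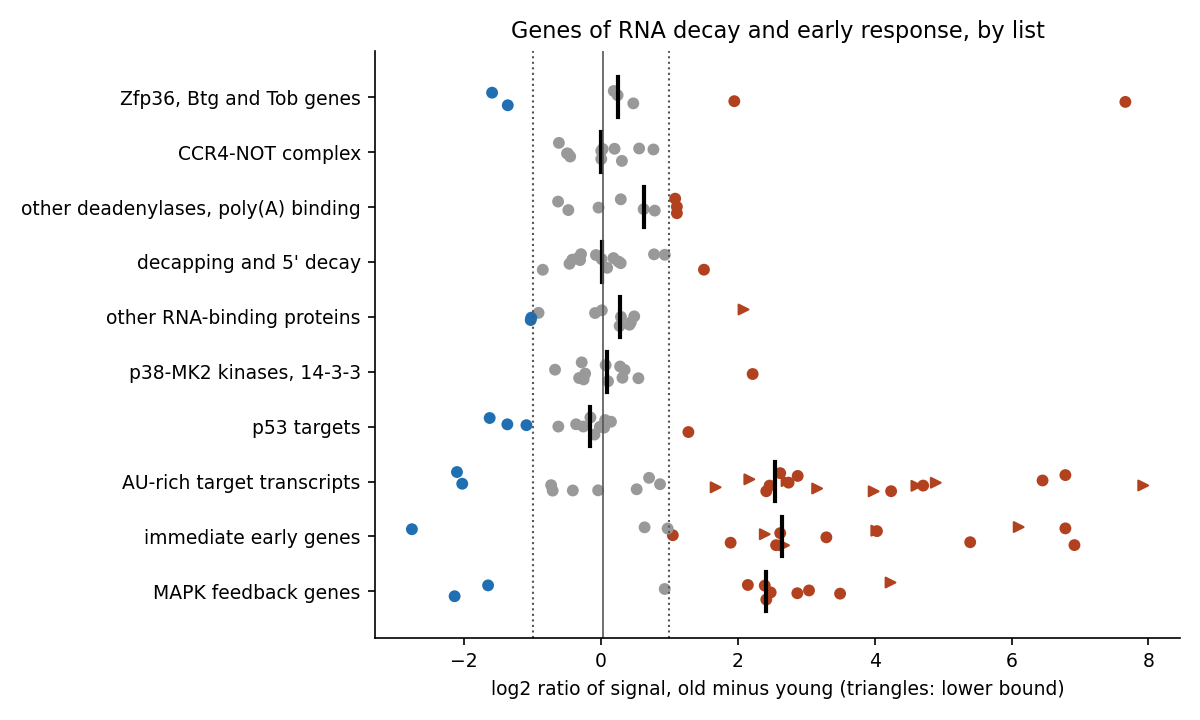
Each point is a measured gene, placed by its log2 ratio (old minus young) and grouped by list; triangles are lower bounds, black bars list medians, dotted lines 2-fold and the solid line the median of all measured genes (0.03). Most genes of the decay machinery lie between the dotted lines, while target transcripts, immediate early genes and MAPK feedback genes have medians of 2.54, 2.65 and 2.42.

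By closeness of signal on the 2 arrays (Euclidean distance in log2 units among genes above the floor on both), the nearest genes to Zfp36 were the smooth muscle actin gene Acta2, Egr1 and Tmem106a, at distances of 0.46, 0.68 and 0.91. Nearest to Zfp36l1 were Glul, Lgmn and Sema6d, to Btg1 Lbp, Ypel2 and Pgk1, and to Tob1 Tmem86a, Snap47 and Glrx5. The genes nearest to the members within 2-fold were Selenof, Eif3i and Eif3c for Zfp36l2, Tnrc6a, Cd2ap and Psmd3 for Btg2, and Rock1, Sfpq and Ppp2r5a for Tob2. This likeness rests on 2 arrays and is set by each probe set's own brightness as well as by its ratio, so it is not a comparison of expression levels.

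Markers of several other cell types, though not of all, were mostly higher on the old array. All 12 pan-endothelial markers were above the floor on both arrays, 5 of them 2-fold or more toward the old array (Robo4 9.12-fold, Tek 5.91-fold, Esam 2.68-fold, Eng 2.54-fold and Kdr 2.21-fold) and Emcn toward the young (2.17-fold), with summed signals of 149378 and 87921 (old, young). In the sums that follow, over measured markers, each value under the floor was set to the floor, so a young sum given with "at most" is an upper limit. Leukocyte markers passed 2-fold toward the old array in 8 of 9 cases (14653, and at most 2172 on the young), and 6 of the 9, Ptprc among them, were below the floor on the young. Macrophage markers did so in 9 of 10 (47155, at most 1043), fibroblast markers in 6 of 6 measured (22734, at most 471), pericyte and smooth muscle markers in 5 of 7 (23473, at most 604), mesothelial markers in 5 of 5 (8458, at most 368) and hepatocyte markers in 7 of 7 (15163, at most 797). Of the measured ones, 8 macrophage, 5 fibroblast, 5 pericyte and smooth muscle, 5 mesothelial and 6 hepatocyte markers were under the floor on the young array. Like the 6 leukocyte markers, they count as measured only through the old array, which set their side in advance. The fibroblast marker Pdgfra was below the floor on both arrays. Of all measured genes 16% passed 2-fold toward the old array, and nothing is read from the marker counts. The hepatocyte markers Alb (8900) and Ttr (2270) were bright on the old array and under the floor on the young. So was Clec4f (2442), from the macrophage list, a marker of the Kupffer cells of the liver. The cells are described as lung vascular cells, and the origin of this hepatocyte-type and Kupffer-type signal was not tested. Lymphatic endothelial markers went the other way, as Btg1 and Tob1 did, in 5 of 7 (at most 35146 on the old array and 64662 on the young). These were Nts (at least 141-fold), Mmrn1 (135-fold), Prox1 (at least 93.4-fold), Reln (37.6-fold) and Pdpn (3.68-fold). Nts and Prox1 were under the floor on the old array and so count as measured only through the young. Lyve1 (14901.5) and Flt4 (18035), neither past 2-fold, gave most of the sum on the old array. Lung capillary markers split: 3 of 7 measured were on the old side (Hpgd at least 151-fold, Kit at least 103-fold, Gpihbp1 35.7-fold) and 2 on the young (Ednrb 8.83-fold, Apln 6.30-fold), and Car4, Tbx3 and Fibin were below the floor on both arrays. Of the lung epithelial markers Cdh1 was on the old side (at least 3.98-fold), Sftpb and Epcam did not pass 2-fold, and Sftpc, Sftpa1, Cldn18 and Aqp5 were below the floor on both arrays. Zfp36 and several of its targets are also expressed by leukocytes. The part of leukocytes, lymphatic endothelial cells or any other of these cell types in the members' ratios was not tested. In such bulk samples, fewer cells of a type and less RNA per cell cannot be told apart. RNA integrity, read as the signal ratio of the control probe sets at both ends of a transcript, gave 0.718 (old) and 0.806 (young) for Gapdh and 1.32 and 1.203 for Actb, in opposite order.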

How the data were processed

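RNA of lung vascular cells was measured on 2 one-colour Affymetrix arrays, 1 per age group. Each deposited value is the intensity (signal) of a probe set, made by the authors with GCOS 1.4 and MAS5 per the submitters' processing notes. With 2% trimmed at either end, the deposited intensity averaged 500.003 on both. The sources used here give no background or summarisation settings. Of 45101 probe sets, 64 controls were left out. Names came from the platform annotation of 2016, and only probe sets with 1 symbol were named (34945).

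Arrays were multiplied by 1.05 (old) and 0.956 (young), which took the median log2 ratio (probe sets above the median on each array) from -0.13 to 0. A gene below the floor on 1 array has a lower bound only. No statistical test was possible. The members and lists were chosen with earlier results of these data known. Named genes were all members, up to 4 genes of each list by size of ratio, a few named whatever their values, the 3 nearest genes to each member, and marker genes; others are said to be chosen after their values were seen. Alternatives were 3 scalings, floors at the 25 and 75 percentiles, the mean over probe sets, leaving out _x_at and _s_at probe sets, and an offset of 0.5 times the floor. The steps were tested on simulated data. Promoters are from RefSeq (GRCm38.p6). Python 3.11.15, numpy 2.4.6, pandas 2.3.3, statsmodels 0.14.6 and matplotlib 3.10.9 were used.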

Additional observations from a re-analysis of the deposited data

How the results depend on the processing

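Of 216 comparisons of a result with its value under an alternative, 198 stayed close and 18 moved further. Close means within 1.5 times for a count and within the probe-set SD of 0.42 for a ratio. Part of the 198 could not have moved, since a change of floor leaves the ratio of a bright gene as it was. The share is therefore no measure of robustness. Of the ratios past 2-fold, 0 changed sign. On the values as deposited the median of all measured genes was -0.09 in place of 0.03, so ratios there are shifted by about that difference. Zfp36 had a log2 ratio of 7.20 with quantile normalization, 7.23 with the offset and a lower bound of 5.44 with the higher floor, where fewer values are readable. With the mean over probe sets Tob1 had -0.87, and 0 members were higher on the young array. Without shared-sequence probe sets Tob2 had -0.077. With the higher floor, 11 target transcripts were higher on the old array and 0 on the young, 1 MAPK feedback gene on the young, 0 decapping genes on the old, 1 other deadenylase or poly(A)-binding gene on the old, and 0 other RNA-binding regulators on the old against 1 on the young. On the values as deposited 0 other deadenylase or poly(A)-binding genes were higher on the old array. Among other RNA-binding regulators, 2 were higher on the old array with the lower floor, and 0 on the young with loess, the mean over probe sets or the offset. No paired analysis was possible because each group holds 1 array. Signal over background limits Zfp36 most, whose young value lies at 1.42 times the floor. No replicate could be left out.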
